A study of Mus musculus with 6 samples.

Results

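Ionotropic glutamate and GABA receptors are ion channels that open when a neurotransmitter binds, and they carry most fast signalling between neurons of the brain. Glutamate receptors of the AMPA, kainate and NMDA families are tetramers that let cations in and excite the cell, whereas GABA receptors are pentamers that conduct chloride and usually inhibit it. Which subunits a cell makes sets the kinetics, ion selectivity and drug sensitivity of its receptors, and some subunits are also made outside the nervous system. The subunits were taken by gene symbol, namely Gria (AMPA), Grik (kainate), Grin1 to Grin3 (NMDA, without Grina) and Gabr genes, which gave 35 of the 18437 mRNAs listed in any library, 16 for glutamate and 19 for GABA receptors.

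Ribo-seq libraries were analysed, in which the mRNA fragments covered by ribosomes are sequenced, so that the values are ribosome densities and not RNA levels. Tissues came from untreated wild-type (WT) C57BL/6J mice at 4 weeks of age and were lysed in the presence of cycloheximide, with 1 library under each of the labels small intestine, brain, lung, heart, kidney and colon. The number of animals behind a library is not given in the sources used here. With 1 library per label no difference between libraries has a replicate check, no test was made, and the 95% intervals below cover counting error only. Between 4504853 and 10635031 reads on coding sequences (CDSs) lay behind each library, and 3 reads on a CDS as long as that of Gabrb1 correspond to 0.198 to 0.468 RPKM (reads per kilobase of CDS, scaled to the total reads of the library).

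The tissue markers went against 4 of the 6 labels. Summed RPKM of 6 neuron markers was 4050 in the library labelled small intestine and between 3.44 and 127 in the others, with 25.1 in that labelled brain. The library labelled small intestine also held the astrocyte genes Slc1a2 at 1393 and Aldoc at 242 RPKM, which were highest there, and Aqp4 at 163 RPKM, which was higher in that labelled kidney (403 RPKM). The oligodendrocyte genes Mog at 648 and Cnp at 286 RPKM were highest there, and epithelial markers were lowest there (85.5 RPKM summed over 5 genes). Small intestine markers (Lct, Alpi and Fabp2) summed to 24492 RPKM in the library labelled brain, kidney markers (Umod and Slc12a1) to 17162 RPKM in that labelled colon, and colon markers (Car1, Aqp8 and Slc26a3) to 924 RPKM in that labelled kidney, each the highest of the 6 libraries. Cardiomyocyte and lung markers were highest in the libraries so labelled. Labels were kept as given. Most of the reads on the subunits lie in the library labelled small intestine, and no value of level or composition in it has a second library behind it.

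Receptor subunits were concentrated in the library labelled small intestine, the one with the brain markers. There 29 of the 35 subunits exceeded 1 RPKM, against 66.0% of all mRNAs. Reads on the subunits numbered 47490, which is 0.621% of the library, whereas the other 5 libraries held between 131 (labelled colon) and 1184 (labelled lung). In those labelled brain, colon, heart, kidney and lung, 4, 3, 2, 6 and 5 subunits exceeded 1 RPKM, against 51.4%, 56.5%, 60.0%, 62.5% and 55.0% of all mRNAs. In each of these 5 libraries, the share of the subunits over 1 RPKM was below that of all mRNAs. As these are whole tissues, fewer cells of a type and fewer ribosomes per cell cannot be told apart.

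**Figure D1:**
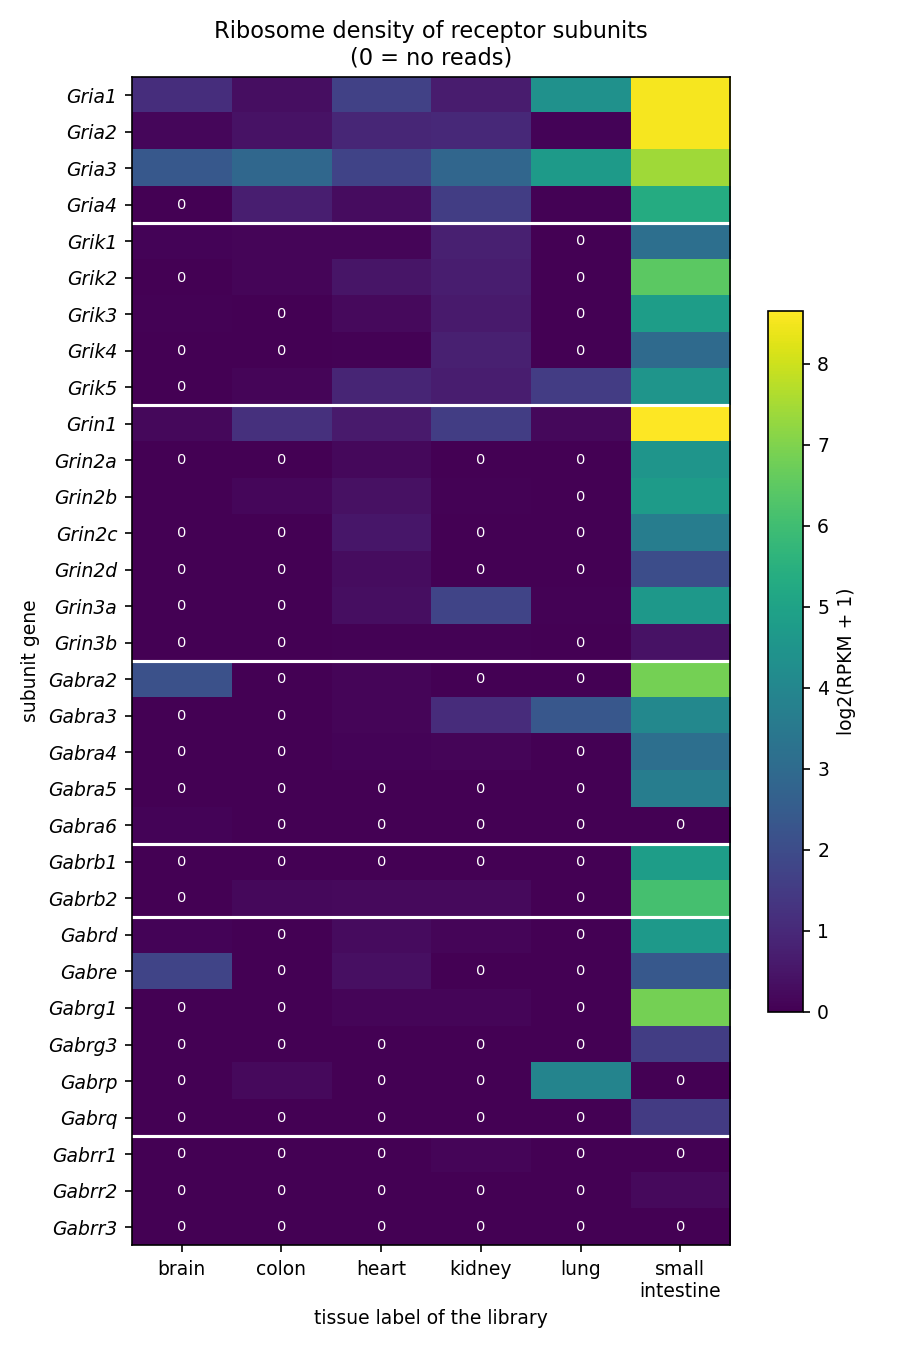
Ribosome density of 32 of the subunits (rows, grouped by family between white lines) in the 6 libraries (columns, by tissue label), coloured by log2(RPKM + 1), with 0 marking cells without a read. The column labelled small intestine is the brightest for 28 of them, and Gria1, Gria3 and Gabrp stand out in the column labelled lung.

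A subunit was called higher in a library when its RPKM was at least 4-fold above that in each of the other 5, with the value of 3 reads taken in place of a library without reads. By this rule 27 subunits were higher in the library labelled small intestine, against 9.14% of the 15432 mRNAs with 10 or more reads in all. Of the 35 subunits, 31 had 10 or more reads over the 6 libraries, and Gabra6, Gabrr1, Gabrr2 and Gabrr3 did not. The called subunits comprised 15 of 16 for glutamate and 12 of 19 for GABA receptors. Of these 19, only 15 had 10 or more reads and could be called. Reads in the other 5 libraries together reached 10 for 20 subunits, of which 17 were among the called. The share of all mRNAs called under that filter was not computed, so this count has no background beside it. The rest of the 31 passed the read minimum only through the library labelled small intestine. The same rule called 0 subunits in the libraries labelled brain, colon, heart and kidney, against 2.20%, 2.84%, 2.37% and 1.17% of mRNAs. It called 1, Gabrp, in that labelled lung, against 4.65%.

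Within the library labelled small intestine, subunit levels spanned more than 3 orders of magnitude. Over 100 RPKM were 8 subunits, between 10 and 100 RPKM were 14, between 1 and 10 RPKM were 7, and 6 were at or under 1 RPKM. The subunit median was 22.1 RPKM, and that of all mRNAs with reads in the library was 6.16 RPKM. Among 30 pairs of neighbours in the order of levels, the interval of the ratio held 1 for 16, so that much of the middle of the order is not resolved even by counting error. One run of such neighbour pairs reached from Grik3 (27.2 RPKM) over Gabrb1, Grin2b, Gabrd, Grin3a and Grik5 to Grin2a (21.6 RPKM). The ends of this run were resolved by counting error, with intervals of 25.1 to 29.6 RPKM for Grik3 and 20.0 to 23.2 RPKM for Grin2a.

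**Figure D2:**
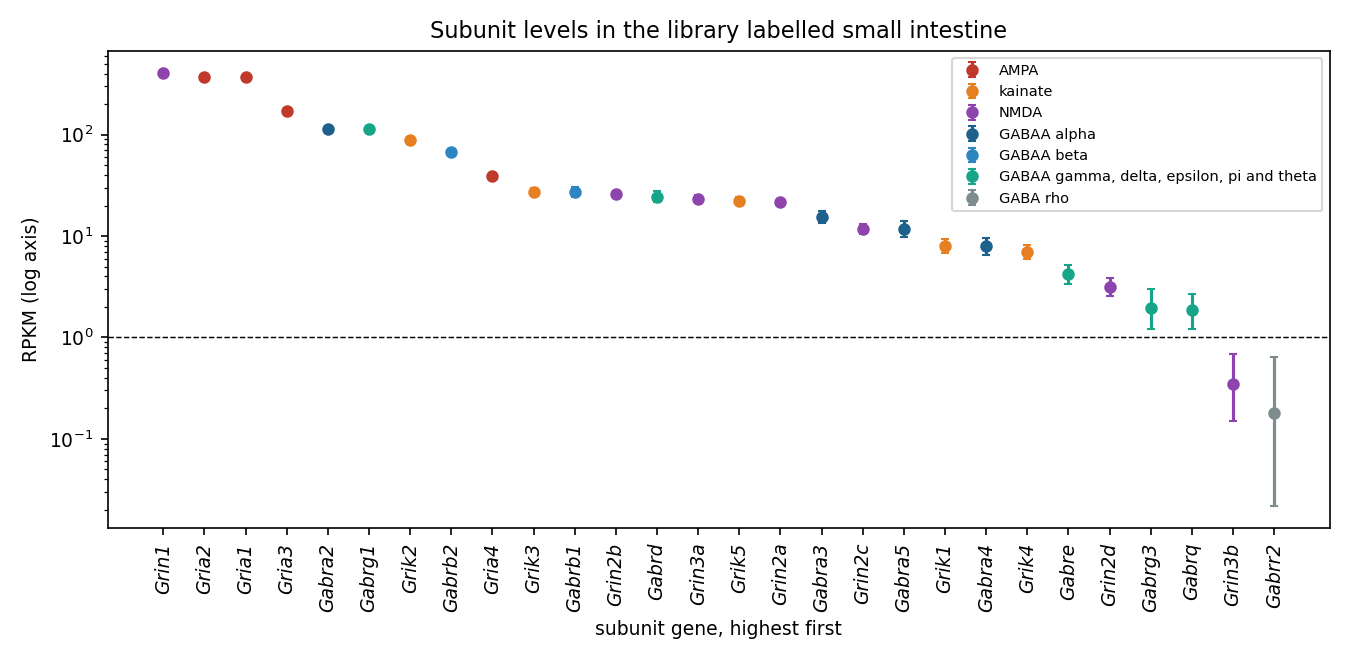
RPKM (log axis) of 28 subunits with reads in the library labelled small intestine, highest first and coloured by family, with exact Poisson 95% intervals from the reads of this 1 library; the dashed line marks 1 RPKM. Grin1, Gria2 and Gria1 lie between 367 and 402 RPKM, and of the subunits drawn only Grin3b and Gabrr2 fall under the line.

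AMPA receptor subunits, which form the channels of most fast excitatory synapses, made up 949 of the 1589 RPKM of glutamate receptors in the library labelled small intestine. Gria2, whose subunit keeps calcium out of the channel after RNA editing, had 372 RPKM (363 to 380) there. It had 0.996, 0.923, 0.335, 0.106 and 0.0488 RPKM in the libraries labelled kidney, heart, colon, brain and lung, at most 20 reads each. Gria2 was thus 373-fold (242 to 611) above its next library. Gria1, the subunit best known from synaptic plasticity, had 367 RPKM (359 to 375) in the library with the brain markers, and 20.0, 2.16, 1.17, 0.582 and 0.245 RPKM in the libraries labelled lung, heart, brain, kidney and colon. Levels of Gria2 and Gria1 in the former did not differ beyond counting error, with a ratio of 1.01 (0.981 to 1.05).

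Gria3 was the only subunit over 1 RPKM in all 6 libraries. It had 171 RPKM (166 to 177) in the library labelled small intestine, then 25.2, 6.33, 6.24, 4.24 and 2.34 RPKM in those labelled lung, colon, kidney, brain and heart. Its ratio to the next library, 6.80 (6.20 to 7.48), was accordingly much smaller than that of Gria2. Gria4 had 39.4 RPKM (36.8 to 42.2), then 1.95, 0.656, 0.226 and 0.0478 RPKM in the libraries labelled kidney, colon, heart and lung, and no reads in that labelled brain. By share of AMPA receptor RPKM in the library labelled small intestine, Gria2 held 39.1% (38.5 to 39.8), Gria1 38.6% (38.0 to 39.3), Gria3 18.1% (17.5 to 18.6) and Gria4 4.16% (3.88 to 4.43).

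AMPA receptor composition differed in the library labelled lung. There Gria3 held 55.6% (52.4 to 58.8) of AMPA receptor RPKM on 519 reads and Gria1 44.2% (41.0 to 47.3) on 421 reads, while Gria2 and Gria4 had 1 read each. Of the neuron markers, Snap25, Rbfox3 and Syn1 had no read in that library, Syt1 was at 5.43 and Nefl at 9.61 RPKM, and Stmn2 was at 112 RPKM. In the libraries labelled brain, colon, heart and kidney, Gria3 had the most reads of the family, with 120, 76, 51 and 126. For the library labelled heart, however, Gria1 followed closely with 48 reads, within counting error of Gria3.

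Editing at the Q/R site of the pore is what makes Gria2 channels impermeable to calcium, and Grik1 and Grik2 are edited at the same place. The enzymes turn the A in the middle of a glutamine codon into inosine, read as G, which gives arginine. The genomic codon was located in the 9 AMPA and kainate subunits, and is shown because these are the families in which subunit composition and editing together set calcium entry. The windows of 27 nt are written 5′ to 3′ on the coding strand, from the GENCODE release M39 CDSs of the GRCm39 genome, with the codon of the site in capitals.
Gria1: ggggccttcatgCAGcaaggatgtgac
Gria2: ggtgcctttatgCAGcaaggatgcgat
Gria3: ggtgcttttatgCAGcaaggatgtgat
Gria4: ggtgcctttatgCAAcaaggatgtgac
Grik1: ggagctctcatgCAGcaaggatcggag
Grik2: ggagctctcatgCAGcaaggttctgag
Grik3: ggctccctgatgCAGcaaggatctgaa
Grik4: ggaggcttcatgCAGcaaggctccact
Grik5: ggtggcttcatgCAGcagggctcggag

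The glutamine codon was CAG in 8 subunits and CAA in Gria4. For Gria2 it lies in exon 11 on the minus strand at chr3:80614218-80614220, for Gria1 in exon 11 on the plus strand at chr11:57133920-57133922, and for Grik2 in exon 13 on the minus strand at chr10:49120425-49120427. The RPKM values hold no base calls, so the edited share was not measured. Of the ADAR family, Adar had 25.8 RPKM and Adarb1, the enzyme of the Gria2 site, 5.03 RPKM in the library labelled small intestine. Adarb2, a relative without known editing activity, had 13.6 RPKM. Only Adarb2, which has no reads in the other 5 libraries, was called higher there, and Adarb1 was at 4.85 RPKM in the library labelled lung.

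Kainate receptor subunits were the least translated of the glutamate families in the library labelled small intestine, at 152 RPKM in sum. Grik2, the most widely expressed of the subunits that form kainate channels on their own, had 87.9 RPKM (83.9 to 92.0), or 57.8% (56.1 to 59.5) of the family. It had 0.629, 0.404 and 0.0815 RPKM in the libraries labelled kidney, heart and colon and no reads in those labelled brain and lung. Grik3 followed at 27.2 RPKM (25.1 to 29.6), with 0.526, 0.177 and 0.0341 RPKM in the libraries labelled kidney, heart and brain and no reads in those labelled colon and lung. Grik1 had 7.99 RPKM (6.85 to 9.27) there, 0.695 RPKM in the library labelled kidney, at most 0.0858 RPKM in those labelled brain, colon and heart, and no reads in that labelled lung.

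Grik4 and Grik5 encode the high-affinity subunits, which need a partner from the first group to form a channel. Grik5 had 22.1 RPKM (20.2 to 24.1) in the library labelled small intestine, then 1.94, 0.874, 0.629 and 0.0756 RPKM in those labelled lung, heart, kidney and colon, with no reads in that labelled brain. In the library labelled lung, Grik5 (44 reads) was the only kainate subunit with a read. Grik4 had 6.93 RPKM (5.87 to 8.13), then 0.690 and 0.0426 RPKM in the libraries labelled kidney and heart, and no reads in the other three. All 5 kainate subunits were called higher in the library with the brain markers, with ratios to the next library from 10.1 (5.91 to 18.4) for Grik4 to 140 (81.5 to 263) for Grik2.

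NMDA receptors, which pass calcium and need both glutamate and a co-agonist, contain the obligatory subunit encoded by Grin1. Grin1 had 402 RPKM (394 to 410) in the library labelled small intestine and 82.4% (81.8 to 83.0) of the RPKM of its family. In the libraries labelled kidney, colon, heart, lung and brain it had 1.97, 1.31, 0.552, 0.135 and 0.131 RPKM. Of its CDS, 41.2% lies within exons of the opposite-strand gene Grin1os, and whether the authors counted by strand is not given in the sources used here.

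The Grin2 genes encode the subunits that bind glutamate and set the kinetics of the channel. Grin2b, which prevails early in development, had 25.7 RPKM (24.1 to 27.5) and Grin2a, which gains with maturation, 21.6 RPKM (20.0 to 23.2) in the library labelled small intestine. Their ratio, Grin2a to Grin2b, was 0.839 (0.759 to 0.927). Grin2c, known from the cerebellum, followed at 11.8 RPKM (10.6 to 13.1) and Grin2d at 3.16 RPKM (2.56 to 3.86). Of the RPKM of these subunits, Grin2b held 41.3% (39.2 to 43.5), Grin2a 34.7% (32.6 to 36.7), Grin2c 18.9% (17.1 to 20.7) and Grin2d 5.08% (4.09 to 6.07).

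Grin2 subunits had few or no reads elsewhere. Grin2a, Grin2c and Grin2d had reads only in the library labelled heart besides that labelled small intestine, at 0.139, 0.427 and 0.216 RPKM. Grin2b had 0.302 RPKM in the library labelled heart, 0.0999, 0.0297 and 0.0211 RPKM in those labelled colon, kidney and brain, and no reads in that labelled lung. The density of Grin1 was 6.45 times (6.15 to 6.77) that of all Grin2 subunits together in the library with the brain markers.

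Grin3a, a subunit that binds glycine and lowers calcium passage, had 23.2 RPKM (21.4 to 25.2) in the library labelled small intestine. It had 2.40 RPKM (1.84 to 3.08) on 62 reads in that labelled kidney, 0.251 and 0.0380 RPKM in those labelled heart and lung, and no reads in those labelled brain and colon. Its ratio to the library labelled kidney was 9.68 (7.44 to 12.8), the lowest of the called NMDA subunits. Its relative Grin3b was the only glutamate subunit at or under 1 RPKM in every library, with 8 reads and 0.348 RPKM (0.150 to 0.685) at its highest.

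**Figure D3:**
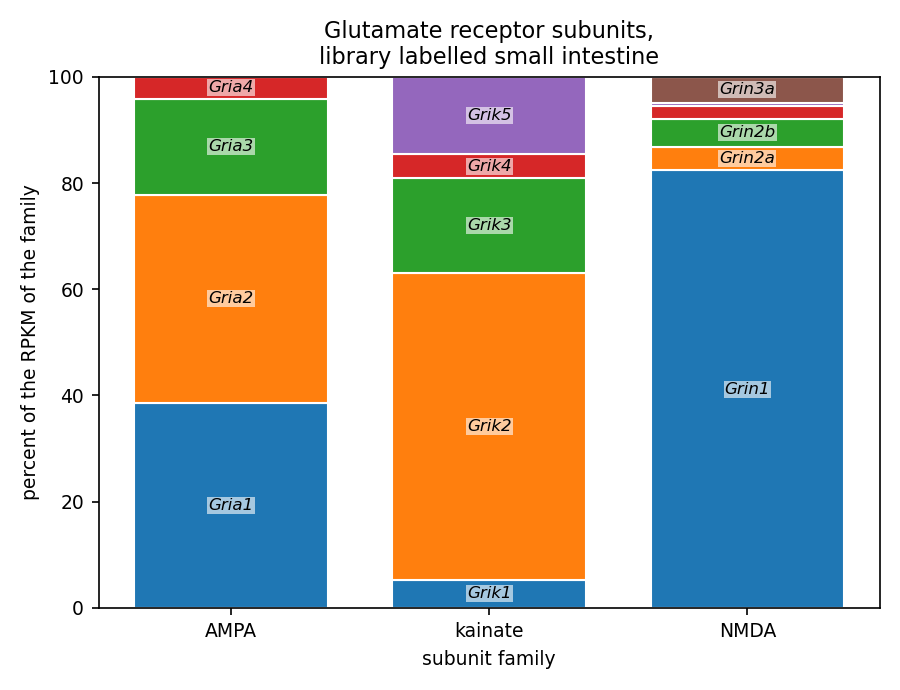
Share of each subunit (stacked segments, percent) in the RPKM of its family in the library labelled small intestine, 1 bar per glutamate receptor family and 1 library in all; segments under 3% are not named. Grin1 takes 82.4% of its family, whereas Gria2 and Gria1 share the AMPA bar almost equally.

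GABA receptor subunits summed to 1246 RPKM in the library labelled small intestine, 0.784 times (0.769 to 0.800) the sum of the glutamate receptor subunits. Alpha subunits form the GABA site with a beta subunit and the benzodiazepine site with a gamma subunit.

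Gabra2, whose subunit is linked to the anxiolytic action of benzodiazepines, had 115 RPKM (108 to 121) in the library labelled small intestine, 3.47 RPKM (2.58 to 4.58) on 50 reads in that labelled brain, 0.0903 RPKM in that labelled heart and no reads in the other three. Gabra3 had 15.5 RPKM (13.3 to 17.8) in the library with the brain markers, 4.05 RPKM (3.00 to 5.33) in the library labelled lung, 1.15 RPKM (0.631 to 1.94) in that labelled kidney, 0.0764 RPKM in that labelled heart, and no reads in those labelled brain and colon. The ratio of Gabra3 to the library labelled lung was 3.82 (2.79 to 5.33), just under the 4-fold limit.

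Gabra5, an alpha subunit known from hippocampal receptors outside the synapse, had 11.8 RPKM (9.80 to 14.0) in the library labelled small intestine, with no reads in any other. Gabra4, a partner of the delta subunit, had 7.92 RPKM (6.48 to 9.59) there, 0.0760 and 0.0705 RPKM in the libraries labelled kidney and heart, and no reads in the other three. Gabra6, the alpha subunit of cerebellar granule cells, was the exception, with no reads in the library with the brain markers (upper limit 0.355 RPKM) and 1 read in that labelled brain. Of 6 other cerebellar markers, 5 exceeded 1 RPKM in the library with the brain markers, as did 66.0% of all mRNAs. They were led by Calb1 at 227, Cbln3 at 18.6 and Cbln1 at 9.49 RPKM. Calb1 was higher, at 3170 RPKM, in the library labelled colon and so was not called. The 4-fold rule called 3 of these 6 markers, beside 9.14% of mRNAs with 10 or more reads. All 6 forebrain markers exceeded 1 RPKM in the library with the brain markers, led by Camk2a at 6863 RPKM, and 4 were called.

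Beta subunits are needed in almost every GABAA receptor. Gabrb2 had 67.4 RPKM (62.8 to 72.3) in the library labelled small intestine and between 0.145 and 0.172 RPKM in the libraries labelled colon, heart and kidney, with no reads in those labelled brain and lung. Gabrb1 had 27.2 RPKM (24.2 to 30.5) in the library labelled small intestine, with no reads in any other, which puts it at least 58.1-fold higher there.

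Gamma subunits anchor receptors at the synapse, whereas the delta subunit marks receptors outside it that respond to ambient GABA. Gabrg1 had 113 RPKM on 1208 reads in the library with the brain markers, 0.0945 and 0.0876 RPKM in the libraries labelled kidney and heart and no reads in the other three. Its density did not differ beyond counting error from that of Gabra2 (ratio 0.989, 0.912 to 1.07). Gabrd had 24.4 RPKM (21.5 to 27.6) and at most 0.181 RPKM elsewhere, where no library had more than 2 reads. Gabrg3 had 1.96 RPKM (1.21 to 3.00) on 21 reads in the library labelled small intestine and none elsewhere. That was 4.12-fold the value of 3 reads in the library labelled colon and thus just inside the limit. Counting error in that library allowed up to 32.6% of the level in the library labelled small intestine.

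The remaining subunits were low or lay in other libraries. Gabrq, which encodes theta, had 1.85 RPKM (1.22 to 2.68) in the library labelled small intestine, with no reads elsewhere. Gabre, which encodes epsilon, had 4.24 RPKM (3.40 to 5.21) there, 2.43 RPKM (1.90 to 3.06) on 71 reads in the library labelled brain, 0.267 RPKM in that labelled heart and no reads in the other three. At a ratio of 1.74 (1.26 to 2.42) Gabre was the subunit spread most evenly between its leading libraries. The rho subunits, best known from retina, were at the limit of counting, since Gabrr1 had 1 read in the library labelled kidney, Gabrr2 had 2 in that labelled small intestine and Gabrr3 had none. Gabrr1 and Gabrr2 share 8.90% and 8.71% of the 28-nt stretches of their CDSs with mRNAs of other genes. Reads of up to 28 nt within such stretches cannot be mapped uniquely, whereas longer reads can reach past them. Such stretches make up at most 0.844% in every other subunit.

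Gabrp, which encodes the pi subunit, showed the reverse pattern. It had 13.9 RPKM (11.7 to 16.4) on 142 reads in the library labelled lung, 1 read in that labelled colon (0.168 RPKM) and no reads in the other 4. Its level in the library labelled lung was 46.8-fold the value of 3 reads in that labelled small intestine. Exons of the opposite-strand gene Gm57379 cover 22.5% of its CDS.

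Many GABAA subunit genes lie in clusters. On GRCm39, the cluster at chr5:70906506-72319431 (Gabrg1, Gabra2, Gabra4 and Gabrb1) gave 263 RPKM or 21.1% of all GABA subunit RPKM in the library labelled small intestine. The cluster at chrX:71299605-71886208 (Gabre, Gabra3 and Gabrq) gave 21.5 RPKM. Genes within these clusters differed in level, since the highest member exceeded the lowest by 14.5-fold on chromosome 5 and by 8.38-fold on X.

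Of the 35 subunits, 12 exceeded 1 RPKM in at least 1 library other than that labelled small intestine, 18 did so only in it, and 5 in none. The shares of all mRNAs in these classes were not computed, so these counts have no background beside them. Subunit levels were then set beside the neural content of each library. Both they and the 6 neuron markers were expressed as a percent of the level in the library with the brain markers. In the library labelled colon, the markers lay between 0 and 0.256%, and Gria3 at 3.69% (2.90 to 4.64) lay above all of them with its whole interval, while Grin1 at 0.326% (0.190 to 0.523) had an interval that held the highest marker. In that labelled brain the markers reached 5.15% (Syn1), which Gabre exceeded at 57.3% (41.4 to 79.2), while Gabra2 at 3.03%, Gria3 at 2.47% and Gria1 at 0.320% did not.

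The library labelled kidney had the highest median of neuron markers, 1.11% with a range from 0.212 to 3.05%. Grin3a at 10.3% (7.82 to 13.4), Gabra3 at 7.47% (4.01 to 12.8) and Gria4 at 4.94% (3.50 to 6.79) had intervals above that range. Gria3 at 3.64% (3.02 to 4.35) overlapped its end, and Grin1 at 0.490% lay within it. The end of the range was Stmn2, with its own interval from 2.17 to 4.17%. That interval overlapped those of Gabra3 and Gria4 but not that of Grin3a. The part of nerve cells in these values was not tested.

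In the library labelled lung the markers had a median of 0.116% but reached 34.7% for Stmn2. No subunit with reads in the library labelled small intestine lay above all of them. Gabrp had no reads in that library and thus has no such percent. Its level in the library labelled lung was 46.8-fold the value of 3 reads in that labelled small intestine. Gabra3 reached 26.2% (18.8 to 35.9), Gria3 14.7% (13.4 to 16.1), Grik5 8.77% (6.29 to 12.0) and Gria1 5.46% (4.94 to 6.02), all above the other 5 markers, of which the highest was Nefl at 1.60% (1.32 to 1.91). The library labelled heart had reads on all 16 glutamate subunits, but 218 in sum, and there Gria3 at 1.36% and Gria1 at 0.588% did not exceed the highest marker, Stmn2 at 1.41%.

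**Figure D4:**
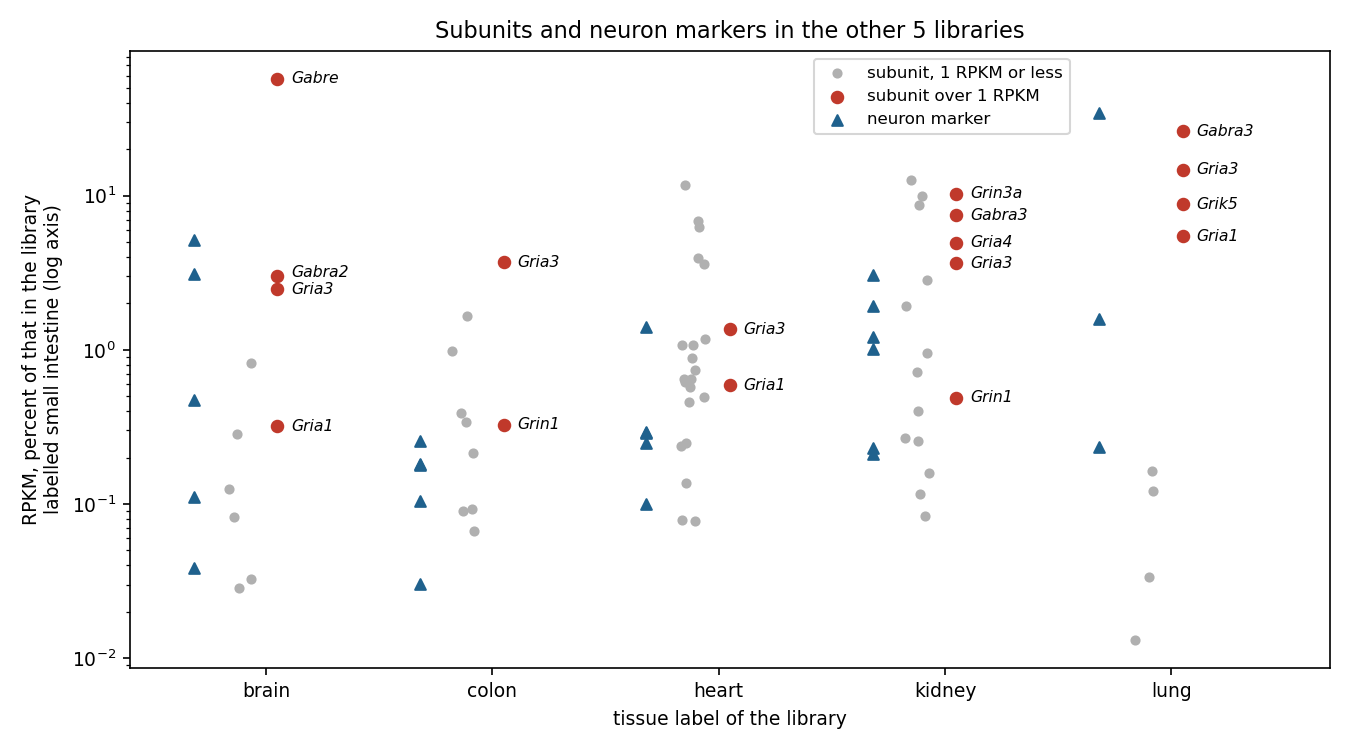
Level of each subunit and neuron marker in 5 libraries as a percent of its RPKM in the library labelled small intestine (log axis), with blue triangles for neuron markers, red points for subunits over 1 RPKM and grey points for the others; genes without reads, and Gabrp, which has none in the library labelled small intestine, are not drawn. Gabre at 57.3% in the library labelled brain is the highest subunit drawn, and the red points labelled lung lie between Stmn2 and the remaining markers.

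Proteins that work with these receptors were translated in the same library. All 14 auxiliary subunits of AMPA and kainate receptors exceeded 1 RPKM in that labelled small intestine, against 66.0% of all mRNAs. Of these, 12 were called higher there. The share called among all mRNAs was 9.14%, for this and the following lists. The most translated were Gsg1l at 58.9 RPKM, Cacng3 at 56.1 RPKM and Cnih2 at 39.5 RPKM. Gsg1l also had 10.1 RPKM (80 reads) in the library labelled heart, the only auxiliary subunit over 1 RPKM there. Of 7 genes for assembly and anchoring of GABAA receptors, 4 were called higher, among them Nlgn2 at 40.3 RPKM, and the trafficking genes Gabarap and Clptm1 and the anchoring gene Gphn (gephyrin) were not. Gphn had 17.8 RPKM there and 22.7 RPKM in the library labelled colon. Of 7 delta and glycine receptor subunits, 6 were called, led by Glrb at 506 RPKM, which also binds gephyrin.

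Metabotropic glutamate and GABAB receptors, which signal through G proteins, were called for 9 of 10 genes, with Grm5 at 173, Grm3 at 152 and Gabbr1 at 142 RPKM. Glutamate release and uptake genes were called for 4 of 7, led by the astrocyte transporter Slc1a2 at 1393 RPKM, the vesicular transporter Slc17a7 at 770 RPKM and Slc1a3 at 376 RPKM. GABA synthesis, release, uptake and breakdown genes were called for 5 of 7, among them the synthetic enzyme Gad1 at 380 RPKM and the transporter Slc6a11 at 127 RPKM. Of the chloride cotransporters, which set the direction of GABA currents, the extruder Slc12a5 at 221 RPKM was called and the importer Slc12a2 at 378 RPKM was not. Slc12a2 was higher, at 476 RPKM, in the library labelled kidney.

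Codon usage was the purpose of these libraries in the study, and the subunits differed in it by family. The GC3 share, the percent of codons ending in G or C without those of Met, Trp and stop, had a median of 56.4% over the 35 subunits, against 58.9% over 18161 mRNAs. It ranged from 39.3% in Gabrg1 to 79.5% in Grik5. Medians were 69.9% for NMDA, 69.2% for kainate and 46.4% for AMPA subunits, and 52.8% over all GABA receptor subunits. Within the AMPA family Gria1 stood apart at 62.3%, with the other three between 44.7 and 46.6%. Weighted by RPKM in the library labelled small intestine, the GC3 share was 58.0% for glutamate and 45.7% for GABA receptor subunits. CDSs were longer in glutamate subunits (median 2872.5 nt) than in GABA subunits (median 1422 nt), which RPKM takes into account.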

How the data were processed

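The authors deposited 1 file of RPKM values for each of the 6 Ribo-seq libraries, with a value per mRNA for reads on its CDS. According to the methods, given for the macrophage libraries and taken to hold here, adapters were trimmed with Cutadapt, reads under 15 nt were dropped, STAR aligned reads to 1 mRNA per gene, that of the longest CDS (Ensembl GRCm39 release 107), and multi-mapped reads or those with more than 2 mismatches were excluded. The submitters' processing notes name cutadapt, STAR and GRCm39 without versions.

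Read counts were recovered from RPKM and CDS length, came out whole for 100% of values (tolerance 1e-06) and gave the intervals. Levels have exact Poisson, ratios exact conditional binomial (sums: log-scale Poisson) and composition shares delta-method 95% intervals. PCR reads without molecular identifiers are not independent molecules, so intervals and 3-read floors cover counting error only. RPKM depends on all reads of a library, and Kri1 takes 22.1% of those labelled kidney and 14.1% of those labelled small intestine. Calls needed a 4-fold difference and 10 reads over the 6 libraries. No p-value was computed, as each label has 1 library. Symbols, positions and CDSs came from GENCODE release M39 (Ensembl 116, GRCm39); 13 mRNAs had no symbol, and CDSs were used for codons where length and ends matched.

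The members, gene lists and limits were chosen with earlier results of these data known. Subunits over 1 RPKM in any library are given in every library, others by range, and from gene lists at most the 3 highest of a list plus those needed beside a subunit; the tissue markers and Gphn were named after their values were seen. Some genes of these lists and some subunits, which all counts and sums include, are not reported here. The alternatives covered limits, scaling, read minimum and shares of reads. Recovery of reads and calls was tested on simulated data. Python 3.11.15, numpy 2.4.6, scipy 1.17.1, pandas 2.3.3, Biopython 1.88 and matplotlib 3.10.9 were used.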

Additional observations from a re-analysis of the deposited data

How the results depend on the processing

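The 27 subunits called at 4-fold in the library labelled small intestine became 28 at 2-fold (14.5% of mRNAs) and 23 at 10-fold (5.38%). A minimum of 50 reads gave 25 of 28 subunits (8.92% of mRNAs), and a minimum of 1 read gave 27 of 34 (8.24%). Leaving out the reads of Kri1 and mitochondrially encoded mRNAs gave 28 (9.55%), as did median-of-ratios size factors (10.3%). Against the libraries labelled heart and lung only, an alternative chosen after seeing the data, 28 were called, beside a higher share of mRNAs (14.9%). Counts of subunits over the limit outside that library rest on few reads. With 0.5 RPKM as the limit they were 6 for the label heart and 14 for kidney. At 2 RPKM they were 1 for colon and 2 for kidney. Counting subunits with 10 or more reads instead gave 7 for the label heart and 13 for kidney. Shares of reads in place of RPKM, which do not take CDS length into account, gave 77.0% for Grin1 in its family, 0.0990 for the ratio of Grin2b to Grin1 and 0.390 for that of GABA to glutamate receptor subunits. The order of Gria2 and Gria1, whose ratio had an interval holding 1, turned with shares of reads, to a ratio of 0.986. No paired analysis was possible because each label has 1 library. Depth limits values under about 1 RPKM, where most subunits had under 10 reads outside the library labelled small intestine.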
